A study of Homo sapiens with 6 samples.

Results

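The subtelomeric regions described here lie within 2 Mb of a chromosome end, and they make up 5566 of the 35130 regions in a methylation table of M07e cells with and without DNMT3B. A region of the authors' deposited table was taken when it lay on an autosome and its start was under 2 Mb, or its stop within 2 Mb of the hg38 length of the chromosome. On the 5 acrocentric chromosomes, whose short arms carry repeats, the long-arm end alone was used, which left 39 ends. No methylation value entered this choice. The other 28442 autosomal regions are given beside them.

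Subtelomeres are the stretches of unique and duplicated sequence next to the TTAGGG repeats of the telomere. In human cells they are normally methylated at CpG, and DNMT3B is the de novo DNA methyltransferase known for keeping them so: in the ICF syndrome, which inherited DNMT3B mutations cause, subtelomeric CpGs lose methylation and the telomeric RNA TERRA is raised. Outside the outermost blocks these ends are gene-rich and rich in CpG, so that the cutting enzyme MspI samples them densely.

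Reduced representation bisulfite sequencing was done on 3 libraries of M07e cells with a CRISPR knockout of DNMT3B and 3 libraries of control M07e cells of WT genotype. M07e is a line from an acute megakaryoblastic leukemia that carries the CBFA2T3-GLIS2 fusion gene, and all cells were grown with GM-CSF. The labels do not say whether libraries came from separate cultures or from 1 knockout clone, nor what the control cells received, and a methylation table gives no marker level with which to check the cell type. The table has 1 mean per group and region, so depth and the spread between libraries are unknown and no value below carries a replicate error. The column read as the knockout, M07e_3883, bears a name that no label uses, and every direction rests on that reading. Positions are on hg38.

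Promoters at the chromosome ends serve as examples of sequence here, though most subtelomeric regions lie away from them. A region was called when q in the authors' deposited table was under 0.01 and the group means differed by at least 25 points. Of the called regions, 18 overlapped a RefSeq promoter window (GRCh38.p14, 250 bases before to 50 after a gene start) by 20 bases or more, 14 higher and 4 lower in the knockout. They are 9.09% of the 198 subtelomeric regions over such a window, where 9.21% of 2368 were called elsewhere. The 3 largest gains and the 3 largest losses among them are shown 5′ to 3′ on the strand of the gene, with the stretch inside the called region in capitals.
CHLSN-AS1: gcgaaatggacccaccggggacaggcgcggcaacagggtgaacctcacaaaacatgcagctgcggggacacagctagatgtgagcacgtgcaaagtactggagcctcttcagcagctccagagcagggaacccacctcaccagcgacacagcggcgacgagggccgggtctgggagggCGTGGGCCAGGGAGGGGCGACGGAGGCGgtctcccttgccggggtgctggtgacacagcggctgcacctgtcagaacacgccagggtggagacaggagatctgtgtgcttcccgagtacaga
ENTPD2: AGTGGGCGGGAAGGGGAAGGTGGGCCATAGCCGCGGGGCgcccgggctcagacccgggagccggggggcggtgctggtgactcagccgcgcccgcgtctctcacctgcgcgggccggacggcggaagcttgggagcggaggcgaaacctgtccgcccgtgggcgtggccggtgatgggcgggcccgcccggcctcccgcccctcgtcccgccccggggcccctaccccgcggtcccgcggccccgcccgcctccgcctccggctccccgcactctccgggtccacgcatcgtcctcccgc
SLC9A3: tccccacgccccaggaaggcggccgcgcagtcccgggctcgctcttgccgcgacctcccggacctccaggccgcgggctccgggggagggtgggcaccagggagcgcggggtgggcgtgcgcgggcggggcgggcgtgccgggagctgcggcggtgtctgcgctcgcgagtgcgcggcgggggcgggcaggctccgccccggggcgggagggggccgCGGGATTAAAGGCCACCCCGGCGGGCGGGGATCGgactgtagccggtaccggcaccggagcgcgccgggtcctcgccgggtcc
CHL1-AS2: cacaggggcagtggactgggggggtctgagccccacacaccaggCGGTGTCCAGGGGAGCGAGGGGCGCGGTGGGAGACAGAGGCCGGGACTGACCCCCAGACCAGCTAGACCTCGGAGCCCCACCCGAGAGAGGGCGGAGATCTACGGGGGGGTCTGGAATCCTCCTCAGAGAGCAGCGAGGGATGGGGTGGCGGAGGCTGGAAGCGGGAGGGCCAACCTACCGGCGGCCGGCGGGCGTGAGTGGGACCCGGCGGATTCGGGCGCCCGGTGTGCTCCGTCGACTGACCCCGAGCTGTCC
ZSCAN18: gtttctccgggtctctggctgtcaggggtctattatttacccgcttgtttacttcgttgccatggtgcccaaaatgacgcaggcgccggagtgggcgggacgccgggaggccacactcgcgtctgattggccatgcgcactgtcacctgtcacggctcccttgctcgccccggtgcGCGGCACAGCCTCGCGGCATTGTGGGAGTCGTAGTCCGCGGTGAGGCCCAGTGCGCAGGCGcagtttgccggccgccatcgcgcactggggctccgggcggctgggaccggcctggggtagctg
PCSK6: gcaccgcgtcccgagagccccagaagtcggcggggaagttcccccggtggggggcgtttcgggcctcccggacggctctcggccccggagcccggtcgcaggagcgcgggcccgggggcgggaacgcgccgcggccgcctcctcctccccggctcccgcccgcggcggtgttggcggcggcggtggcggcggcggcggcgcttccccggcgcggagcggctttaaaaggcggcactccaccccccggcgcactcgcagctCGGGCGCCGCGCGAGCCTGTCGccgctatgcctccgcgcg
The windows are chr7:1065481-1065780 on the plus strand for the antisense RNA gene CHLSN-AS1, and on the minus strand chr9:137054012-137054311 for ENTPD2, chr5:524400-524699 for SLC9A3, chr3:197292-197591 for the antisense RNA gene CHL1-AS2, chr19:58098182-58098481 for ZSCAN18 and chr15:101489658-101489957 for PCSK6. They hold 19, 43, 47, 25, 31 and 54 CpG dinucleotides, where the median of all 35116 windows, with or without a measured region, is 14. The printed windows each hold a measured region, so this comparison does not set called windows apart from other measured ones. In the capitals of CHLSN-AS1, SLC9A3, ZSCAN18 and PCSK6 there are 4, 5, 8 and 6 CpG dinucleotides, and the table counts 8, 10, 16 and 12 sites. A site of the table is thus a cytosine of 1 strand, and a fully covered CpG counts as a pair.

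The CHLSN-AS1 stretch stood at 95.1% in the knockout and 32.0% in the control. At ENTPD2, which encodes an enzyme that splits extracellular nucleotides, the called region of 205 bases reaches past the window and stood at 86.4% in the knockout and 30.1% in the control. SLC9A3, a sodium-proton exchanger gene, had 79.4% in the knockout and 28.6% in the control over 10 sites. In all 3 the control level was between 28.6% and 32.0%.

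The losses had control levels between 50.9% and 76.6%. CHL1-AS2 stood at 16.7% in the knockout and 63.0% in the control, and it is the called region of the 3p end, where 4 regions were measured. ZSCAN18, a zinc finger gene, had 32.6% in the knockout and 76.6% in the control. PCSK6, which encodes a proprotein convertase, had 11.8% in the knockout and 50.9% in the control over 12 sites in 22 bases.

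Across all subtelomeric regions the mean methylation level was higher in the knockout at most places. The median region had 32.0% in the knockout (quartiles 17.2% and 40.5%) and 8.57% in the control (quartiles 0% and 29.8%), and the median difference was 23.4 points. Of the 5566 regions, 3960 were higher in the knockout and 1606 lower. The other autosomal regions had a knockout median of 30.7%, a control median of 7.25% and a median difference of 16.0 points, with 67.7% of them higher in the knockout against 71.1% at the ends. On each of the 22 autosomes the median difference was larger at the ends than on the rest of the chromosome. Regions are not replicates of a genotype, so no test was made between the sets.

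One level dominates these medians. In 1356 subtelomeric regions (24.4%) the control mean was exactly 0 and the knockout mean lay between 25% and 33.33%, against 20.4% of the other autosomal regions. The mirrored case, knockout at 0 and control between 25% and 33.33%, held 133 subtelomeric regions (2.39%) and 2.24% of the others. None of either kind was called. Without both kinds the median difference was 12.9 points at the ends and 3.22 points elsewhere. The table does not show which libraries make up such means, or whether sites without reads in a library were entered as 0, and this was not tested. The median difference of 23.4 points and the count of 3960 regions higher in the knockout hold for the means as deposited and would change if missing values had been counted as 0.

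**Figure D1:**
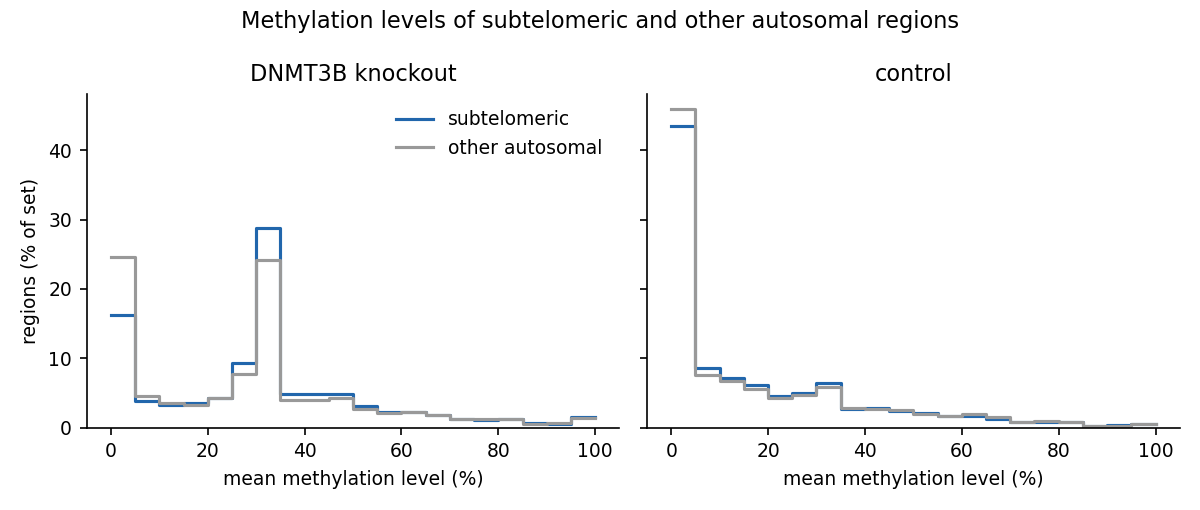
Share of regions (%) by mean methylation level in bins of 5 points, for the DNMT3B knockout on the left and the control on the right, with subtelomeric regions in blue and other autosomal regions in grey. In the knockout 28.7% of subtelomeric regions fall between 30% and 35%, and 16.2% lie under 5%, where 43.4% of them lie in the control.

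Regions low in both groups made up a smaller share at the ends. Both means were under 5% in 415 subtelomeric regions (7.46%), against 14.9% of the others. Both were over 80% in 52 subtelomeric regions (0.934%), against 0.686% of the others. Subtelomeric regions were also longer and sparser, with a median of 7 sites over 72 bases (10.6 sites per 100 bases), where the others had 6 sites over 55 bases (13.2 per 100 bases).

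Position relative to genes went with these differences. Of the subtelomeric regions 18.6% lay within 1000 bases of a gene start, against 32.6% of the others, while 55.2% lay elsewhere in a gene, against 45.4%, and 20.3% were intergenic, against 18.5%. The remainder are on chromosome 8, for which start sites and promoter windows were not used here; there the median difference was 25.1 points at the ends and 16.6 points elsewhere. The start sites used also miss some genes of other chromosomes. A region 134 bases from SLC6A3 had its nearest start 43409 bases away, and one inside ONECUT3 58354 bases away. Regions by such genes can be classed as elsewhere in a gene or intergenic though they lie near a start. The class shares, the weighting to position classes and the promoter window counts share this limit. In the 3 classes the medians of the sets lay closer together than in the pooled regions. Near gene starts the median difference was 3.86 points at the ends and 1.87 points elsewhere. Elsewhere in genes it was 27.1 points at the ends and 25.1 points in the rest, and between genes 21.0 and 20.9 points. Whether the position of the regions accounts for the pooled gap was not tested.

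**Figure D2:**
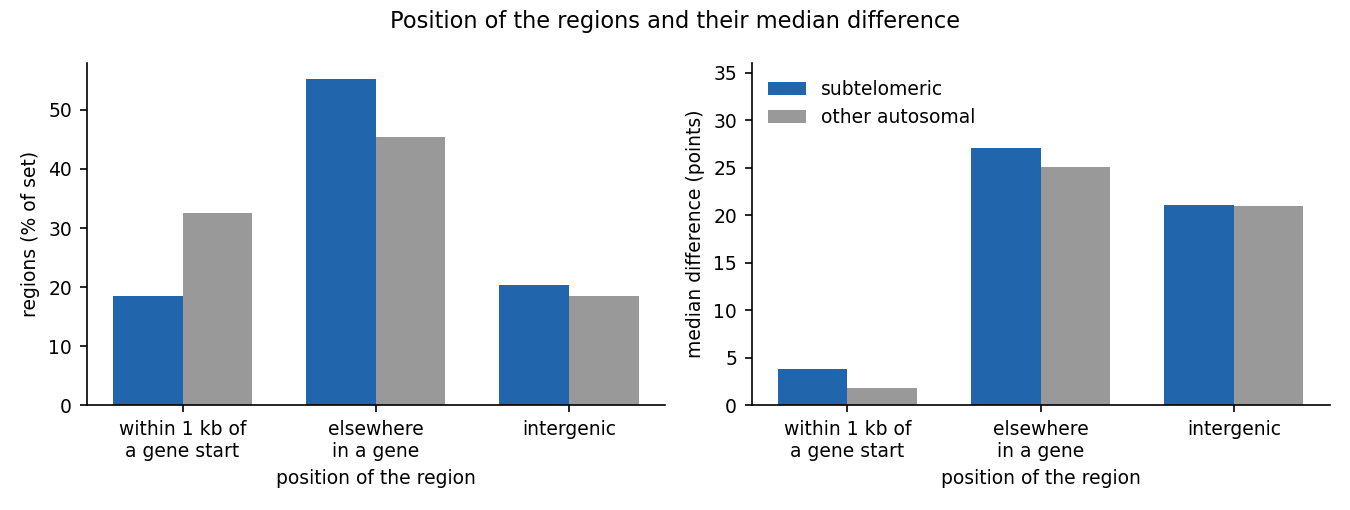
Share of each set (%, left) and median difference, knockout minus control, in percentage points (right) by position of the region, with subtelomeric regions in blue and other autosomal regions in grey. The ends hold fewer regions near gene starts (18.6% against 32.6%). Within each of the 3 classes shown, which leave out chromosome 8, the median differences of the sets differ by less than 2 points. Classes rest on the start sites used here, which miss some genes.

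At the called threshold 331 subtelomeric regions changed, 237 upward and 94 downward. That is 5.95% of them (exact binomial 95% interval over regions 5.34 to 6.60), against 6.99% of the other autosomal regions (6.70 to 7.29) and a background of 6.74% over the whole table. Called higher were 4.26% of the subtelomeric regions, 4.69% of the others and 4.57% of the whole table, and called lower 1.69%, 2.3% and 2.17%. The intervals describe regions of the table and not libraries. Of the called regions, 71.6% were higher in the knockout at the ends (66.4 to 76.4) and 67.2% elsewhere (65.0 to 69.2). Called gains at the ends had a knockout median of 63.3% and a control median of 15.7%, and called losses 16.1% in the knockout and 60.8% in the control.

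Calls moved with the number of sites. With 5 to 9 sites 3.49% of subtelomeric regions were called, with 10 to 19 sites 9.41% and with 20 or more 32.8%, against 4.26%, 12.4% and 39.1% of the other regions. Weighting the other regions to the site numbers of the ends gave 7.37% called, and weighting them to the position classes gave 6.66%. Both weightings were chosen after seeing the data. Among regions with 20 or more sites, called changes at the ends were 71 gains and 6 losses, where the others had 320 gains and 98 losses. In 18 of those 71 gains at the ends, and in 94 of the 320 elsewhere, the control was under 5% and the knockout between 25% and 40%. That is the level at which means pile up.

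The chromosome ends differed in how many regions they held, and 36 of the 39 had a called region. The most sampled ends were 19p with 403 regions, 16p with 390, 7p with 301, 17q with 292 and 20q with 275, together 29.8% of the subtelomeric regions. Among the 28 ends with 50 or more regions, the share called ran from 1.47% at 10p (1 of 68) to 11.1% at 14q (8 of 72). The median difference was above 0 at all 39 ends, and among those 28 it ran from 15.8 points at 7q to 29.0 points at 22q. Median knockout levels there stayed within 28.2% and 33.2%, while median control levels ran from 5.33% at 17p to 20.6% at 7q.

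Gains outnumbered losses at 30 ends, losses outnumbered gains at 3, and 3 had as many of each. The 22q end had 12 called regions, all higher in the knockout, and 6q had 7, all higher. The 16p end, which carries the alpha-globin genes, had 8 gains and 9 losses, and 12q had 4 gains and 5 losses. The 19p end had most called regions, 22 higher and 10 lower. No region was called among 19 at 1q, 38 at 3q and 29 at 4q, which holds the D4Z4 repeat with DUX4. By chromosome, the share called was lower at the ends than on the rest in 14 of 22 autosomes and higher in 8.

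**Figure D3:**
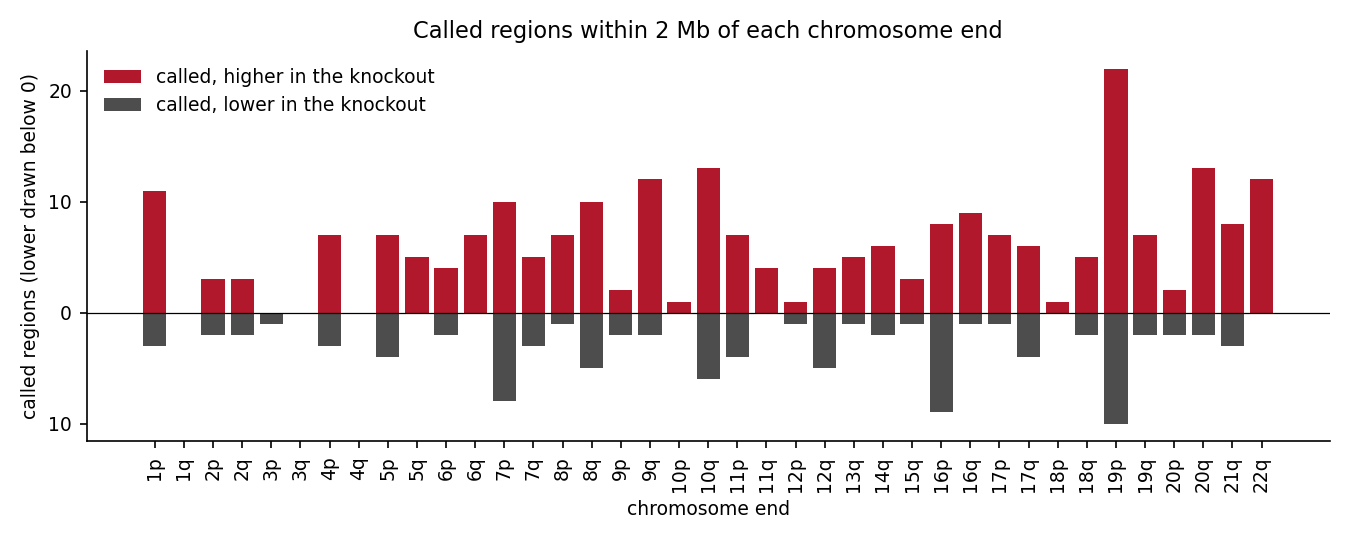
Number of called regions within 2 Mb of each of the 39 chromosome ends, those higher in the knockout drawn upward in red and those lower drawn downward in grey. The 19p end has 22 gains and 10 losses, 22q has 12 gains and no loss, and 1q, 3q and 4q have no called region.

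Distance from the end within the 2 Mb made little difference to the medians beyond the first 250 kb. The median difference was 20.3 points in the 76 regions within 0.1 Mb, 16.6 points from 0.1 to 0.25 Mb and 24.8 points from 0.25 to 0.5 Mb. It then stood at 23.7, 23.3 and 23.1 points in the bins up to 1, 1.5 and 2 Mb. Further in, it was 22.7 points from 2 to 3 Mb, 21.0 from 3 to 5 Mb, 19.02 from 5 to 10 Mb and 13.8 beyond 10 Mb. The binned medians showed no step at 2 Mb. In the last 0.1 Mb inside that limit 4.29% of 280 regions were called with a median difference of 24.6 points, and in the first 0.1 Mb outside it 7.82% of 243 with 21.4 points.

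The share called followed no such slope. It was 3.95% within 0.1 Mb (3 regions, interval 0.822 to 11.1), 9.30% from 0.1 to 0.25 Mb (20 regions, 5.78 to 14.0) and 4.11% from 0.25 to 0.5 Mb (23 regions, 2.62 to 6.10). In the wider bins it lay between 5.55% and 7.42%.

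**Figure D4:**
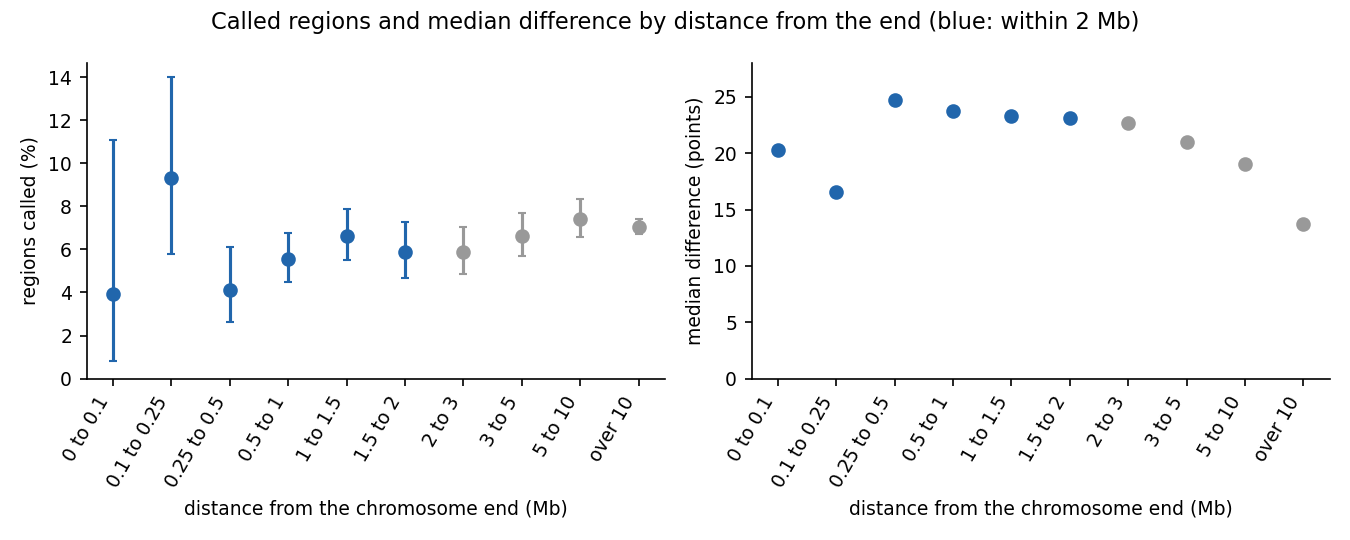
Share of regions called (%, left, with exact binomial 95% intervals over regions) and median difference in percentage points (right) by distance from the chromosome end, with bins inside 2 Mb in blue and the bins further in, shown in grey. The median difference stays between 23.1 and 24.8 points from 0.25 to 2 Mb and is 13.8 points beyond 10 Mb.

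The outermost regions carried the pattern of a control at 0. The nearest region lay 10.6 kb from an end, and 14 regions at 11 ends lay within 15 kb. Distances count from the first or last position of the hg38 chromosome, with any unsequenced positions included. The distance to the telomere repeats themselves is therefore not known and can be shorter. In 10 of them the control mean was 0, over 5 to 30 sites, and the knockout mean was between 31.5% and 51.9%. None of the 14 was called, and q in the authors' deposited table was 1 for each of those 10. At 21q, 30 sites 10.6 kb from the end stood at 32.0% in the knockout and 0% in the control. At 4q, 18 sites stood at 51.9% in the knockout and 0% in the control.

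Other outermost regions were methylated in both groups. At 12p, 10.6 kb from the end, 7 sites stood at 97.2% in the knockout and 94.2% in the control, and at 2p 5 sites stood at 92.7% in the knockout and 76.1% in the control. Of the 14 regions, 6 were nearest to copies of RPL23AP, a ribosomal protein pseudogene family that ends many chromosomes. Such copies are near-identical between ends, and no source used here says how reads were placed among them, so their values are uncertain.

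The 3 called regions within 0.1 Mb, named after their values were seen, lay somewhat further in. At 16p, 13 sites by RHBDF1, 63.0 kb from the end, had 71.0% in the knockout and 12.5% in the control. At 5p, 6 sites 53.0 kb from the end had 93.3% in the knockout and 27.8% in the control. At 9p, 24 sites overlapping the pseudogene PGM5P3 and its antisense RNA gene PGM5P3-AS1 had 10.0% in the knockout and 49.0% in the control.

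Gene families duplicated among subtelomeres had 31 regions in or near 17 genes, with a median difference of 31.4 points, and 1 of these regions was called (3.23%, beside 5.95% of all subtelomeric regions). The called region lay in the pseudogene RPL23AP53 at 8p and stood at 65.9% in the knockout and 14.96% in the control. By FRG2, a gene next to the D4Z4 array of 4q, 9 sites at 190022233 to 190022348 stood at 66.1% in the knockout and 25.3% in the control, with q of 0.0503 in the authors' deposited table. In the same stretch 5 sites at 190021515 to 190021612 stood at 45.1% in the knockout and 73.2% in the control, with q of 0.475. A further stretch, 5 sites at 190038501 to 190038661, stood at 74.6% in the knockout and 27.6% in the control, with q of 0.0237. None passed, and the first pair also lies within DUX4L9, a pseudogene copy of the germline transcription factor gene DUX4.

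The telomere maintenance genes at these ends had no called region among 20, where 5.95% of all subtelomeric regions were called. TERT, the catalytic subunit of telomerase, at 5p, had 15 regions, 9 higher and 6 lower in the knockout by the deposited difference. From region to region the means ran from 0% to 68.6% in the knockout and from 0% to 57.0% in the control. The median difference of the TERT regions was 20.6 points, beside 23.4 points over all subtelomeric regions. Its lowest q in the authors' deposited table was 0.0436, for 16 sites at 1282907 to 1283050 inside the gene with 68.6% in the knockout and 39.3% in the control. RTEL1, a helicase that resolves telomere loops, at 20q, had 5 regions, of which 11 sites stood at 51.5% in the knockout and 17.7% in the control with q of 0.0720.

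The alpha-globin cluster, 16p's erythroid gene group, was counted with its neighbour NPRL3. NPRL3 is not a globin gene and held 4 of the 12 regions. Of these 12, 1 was called (8.33%, beside 5.95% of all subtelomeric regions). It lay in HBM, a minor globin gene, 168 bases from a gene start, and stood at 97.7% in the knockout and 27.7% in the control (9 sites, 166146 to 166178). The adult globin genes had no called region. By HBA2, 7 sites stood at 29.4% in the knockout and 63.5% in the control, and by HBA1, 8 sites stood at 28.6% in the knockout and 56.1% in the control, with q of 0.223 and 0.478 in the authors' deposited table. HBA1 and HBA2 are near-identical copies, so their values are uncertain.

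Blood cell regulators had 4 called regions of 126 (3.17%, beside 5.95% of all subtelomeric regions), 3 higher and 1 lower, in or near 4 of 9 genes. IRF4, a factor of lymphoid and myeloid cells, fell to 32.7% in the knockout, against 94.4% in the control, over 5 sites 1788 bases from a gene start. TCF3, a helix-loop-helix factor gene of lymphocytes, had a called gain, 55.6% in the knockout and 12.8% in the control over 13 sites. By EGFL7, the host gene of miR-126, 31 sites lying 37459 bases away stood at 34.7% in the knockout and 4.30% in the control. No region of ZFPM1, the GATA1 cofactor FOG1, was called.

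CBFA2T3, a transcriptional corepressor and the 5' partner of the fusion, lies near the 16q end, with its called region 1397 kb from it. Of its 28 regions 23 were higher in the knockout and 5 lower by the deposited difference. The knockout median was 32.98% and the control median 9.31%. Several of the 23 stood at 0% in the control and at 25% to 33.33% in the knockout. If sites without reads were entered as 0, the count and both medians of this gene could change, which was not tested. The called region, 13 sites 97 bases from a RefSeq gene start, was at 83.4% in the knockout and 15.4% in the control. Of the regions on either side, 5 sites at 88939960 to 88940004 stood at 26.7% in the knockout and 0% in the control, and 5 sites at 88942020 to 88942044 stood at 33.33% in the knockout and 0% in the control, neither of them called. The granule protease genes of 19p and 16p had 1 called region of 35 (2.86%, beside 5.95% of all subtelomeric regions). In it, 12 sites of ELANE, the neutrophil elastase gene, fell to 32.7% in the knockout, against 80.2% in the control. The other ELANE regions were not called: 9 sites stood at 82.5% in the knockout and 0% in the control, with q of 1 in the authors' deposited table, and 11 sites at 33.7% in the knockout and 19.01% in the control.

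Developmental transcription factor genes had 27 called regions among 160 (16.9%, beside 5.95% of all subtelomeric regions), 14 higher and 13 lower, in or near 10 of 17 genes. Their median number of sites was 6, beside 7 for all subtelomeric regions, and the called ones held from 5 to 51 sites. Whether site numbers bear on the share called was not tested. No test was made of the list, and its genes were chosen with earlier results of these data known. A further 15 genes of such families at the ends, among them NKX1-1, SCRT1 and DMRT1 and added after seeing the data, had 5 called regions of 74 (6.76%), and both sets together 32 of 234 (13.7%). MAFA, a beta-cell factor gene at 8q, had 2 called losses, 3.75% in the knockout and 29.1% in the control over 32 sites, and 5.69% in the knockout and 35.4% in the control over 23 sites. GATA5, an endoderm and heart factor gene, had 8 sites lying 327 bases away that fell to 19.7% in the knockout, against 60.8% in the control, and 24 sites lying 37215 bases away at 36.6% in the knockout and 5.42% in the control.

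In several of these genes neighbouring regions changed in opposite directions. VENTX, a homeobox gene of blood progenitors at 10q, had 3 successive called regions before its start. Of these, 5 sites at 133235430 to 133235446 stood at 17.9% in the knockout and 54.1% in the control. Next, 12 sites at 133236995 to 133237222 stood at 58.6% in the knockout and 5.25% in the control. Then 8 sites at 133237271 to 133237299 stood at 55.3% in the knockout and 81.4% in the control. A gain is thus flanked by a loss on each side. FOXF2, a forkhead gene at 6p, had 16 sites by its start at 51.4% in the knockout and 11.5% in the control, and 7 sites within it at 97.4% in the knockout and 53.7% in the control. Its nearest called region outside the gene was a loss 6030 bases away, 27.8% in the knockout and 73.2% in the control, and the next, 11133 bases away, a gain, 80.8% in the knockout and 46.8% in the control.

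SOX8, at 16p, had a loss inside the gene (14 sites, 14.6% in the knockout and 57.3% in the control) and a gain 4046 bases away (20 sites, 58.5% in the knockout and 22.0% in the control). ONECUT3, at 19p, had 3 losses and 2 gains in or near it, which alternate in direction along the chromosome. The loss with most sites, 51 inside the gene at 1753768 to 1753922, was at 22.8% in the knockout and 48.3% in the control. ONECUT3 is missing from the start sites used, so how far this loss lies from the gene start is unknown. Outside the gene, 8367 bases away, lay the gain with the largest difference, with 95.5% in the knockout and 29.8% in the control. UTF1, a pluripotency factor gene that lies beside VENTX, had 38 sites at 32.5% in the knockout and 1.75% in the control. By SALL3, a zinc finger gene at 18q, 5 sites lying 30139 bases away fell to 11.8% in the knockout, against 68.2% in the control.

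UNCX, a homeobox gene of the somites at 7p, had 26 regions, of which 15 were higher and 11 lower in the knockout. Inside the gene, 12 sites at 1236423 to 1236446 stood at 9.64% in the knockout and 38.5% in the control. Beyond it, 5 sites at 1238929 to 1239023 stood at 75.9% in the knockout and 19.1% in the control, 9 sites at 1241260 to 1241299 at 81.2% in the knockout and 44.4% in the control, and 9 sites at 1242415 to 1242446 at 8.89% in the knockout and 46.4% in the control. All 4 were called. The other called regions were gains, 89.7% in the knockout and 35.2% in the control 2328 bases before the gene, and 60.6% in the knockout and 25.3% in the control 38754 bases from it.

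Over all ends, 46 pairs of successive called regions lay within 10000 bases of each other, and 22 of them agreed in direction while 24 did not (47.8% the same). The other autosomal regions had 166 such pairs, 91 of the same direction and 75 of opposite direction (54.8% the same). Among 1054 coding genes with a subtelomeric region in or near them, 243 had a called one, 187 a gain, 82 a loss and 26 both. No such count was made for the other autosomal genes, so these counts have no background. Genes also held unequal numbers of regions, such as 1 at A1BG and 79 at PTPRN2. By region, 5.95% were called at the ends and 6.74% over the whole table.

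Signalling genes had 14 called regions of 118 (11.9%, beside 5.95% of all subtelomeric regions), 9 higher and 5 lower, in or near 7 of 12 genes. PDGFA, a platelet-derived growth factor gene at 7p, had a called loss near its start besides the one in its interior: 7 sites at 519150 to 519162 stood at 9.52% in the knockout and 62.1% in the control. On the other side of the start, 5 sites at 522788 to 522817 stood at 3.56% in the knockout and 46.3% in the control, with q of 0.0762 in the authors' deposited table. Of its 18 regions no other was called, and 17 sites lying 9583 bases away stood at 36.2% in the knockout and 7.11% in the control. JAG2, a NOTCH ligand gene at 14q, had a gain near a gene start (6 sites, 65.4% in the knockout and 30.6% in the control), a further gain inside it (30 sites, 31.9% in the knockout and 1.11% in the control) and a loss 3943 bases away (11 sites, 14.5% in the knockout and 58.5% in the control). By FGFRL1, a decoy receptor gene for fibroblast growth factors at 4p, 15 sites lying 8820 bases away fell to 1.48% in the knockout, against 49.7% in the control. By DLL1, a NOTCH ligand gene at 6q, 5 sites lying 33140 bases away stood at 77.4% in the knockout and 8.33% in the control. DVL1, a WNT pathway gene at 1p, and FGFR3, a growth factor receptor gene at 4p, each had 1 gain. NOTCH1, AXIN1, NKD2, NRARP and FGF22 had no called region.

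EFNA2, an ephrin ligand gene at 19p, had 4 gains and 1 loss in or near it. The gains at 11834 and 23887 bases from EFNA2 lay outside the gene. At its start 11 sites stood at 66.0% in the knockout and 24.8% in the control, and in its interior 5 sites at 1293489 to 1293575 stood at 96.5% in the knockout and 25.6% in the control. Its loss, 5 sites at 1300170 to 1300189, was at 30.02% in the knockout and 70.3% in the control.

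Neuronal genes had 23 called regions of 277 (8.30%, beside 5.95% of all subtelomeric regions), 19 higher and 4 lower in the knockout, where 71.6% of all calls at the ends were higher. They lay in or near 12 of 15 genes. KIF1A, an axonal motor gene at 2q, had 98.9% in the knockout and 26.7% in the control over 5 sites, 831 bases from a gene start. VIPR2, a receptor gene for vasoactive intestinal peptide at 7q, had 70.4% in the knockout and 24.9% in the control over 22 sites near a gene start. KCNG2, a potassium channel subunit gene at 18q, had 2 gains, 98.1% in the knockout and 46.9% in the control over 13 sites, and 49.5% in the knockout and 4.79% in the control over 20 sites. OPRL1, the nociceptin receptor gene at 20q, had 75.9% in the knockout and 36.1% in the control over 24 sites. MAPK8IP2, a kinase scaffold gene of neurons at 22q, had 3 gains, the largest with 54.1% in the knockout and 9.09% in the control over 12 sites by its start.

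The losses among the neuronal genes were 3 in PTPRN2 and 1 in CACNA1H, a T-type calcium channel gene at 16p. In CACNA1H 9 sites fell to 12.6% in the knockout, against 74.7% in the control, while 5 other sites of the gene were at 54.6% in the knockout and 2.22% in the control. PTPRN2, a phosphatase-like protein gene of secretory vesicles at 7q, had 79 regions, 45 higher and 34 lower. Its gains included 18 sites at 98.1% in the knockout and 49.9% in the control, and its losses 20 sites at 29.9% in the knockout and 71.1% in the control.

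Matrix and mucin genes had 12 called regions of 152 (7.89%, beside 5.95% of all subtelomeric regions), 10 higher and 2 lower. AGRN, which encodes the heparan sulfate proteoglycan agrin, at 1p, had 2 gains, 80.6% in the knockout and 16.7% in the control over 8 sites, and 45.2% in the knockout and 9.86% in the control over 25 sites. COL6A1, a collagen VI gene at 21q, had a loss inside the gene (13.7% in the knockout and 69.3% in the control), a gain inside it (64.2% in the knockout and 18.5% in the control) and a gain 8836 bases away. The neighbouring collagen VI gene COL6A2 had 6 sites at 90.8% in the knockout and 32.3% in the control. MUC2, the intestinal mucin gene at 11p, had a loss, 8.14% in the knockout and 50.2% in the control over 18 sites.

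The largest changes near coding genes rested on 5 to 13 sites each. The losses were led by the 8 sites inside PDGFA, with 12.5% in the knockout and 97.2% in the control, and by 5 sites 22045 bases from TACC3, a spindle protein gene, with 13.3% in the knockout and 90.8% in the control. By NOC4L, a nucleolar protein gene at 12q, 8 sites stood at 16.7% in the knockout and 82.8% in the control. By STK32C, a kinase gene at 10q, 5 sites stood at 27.9% in the knockout and 90.4% in the control. In PXDN, which encodes peroxidasin, at 2p, 8 sites stood at 12.5% in the knockout and 72.3% in the control, and in METRNL, a secreted protein gene 168 kb from the 17q end, 9 sites at 10.3% in the knockout and 69.3% in the control. A region 16208 bases from GALNT9, a glycosyltransferase gene at 12q, stood at 33.33% in the knockout and 94.4% in the control.

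Gains were led by FSCN2, a retinal actin-bundling gene at 17q, with 92.5% in the knockout and 5% in the control over 8 sites, and TOP1MT, the mitochondrial topoisomerase gene at 8q, with 97.3% in the knockout and 12% in the control over 5 sites. A region 28193 bases from LOC124905962 at 2p, 9 sites at 388350 to 388419, stood at 90.04% in the knockout and 12.6% in the control. In MYO1C, a myosin gene at 17p, 8 sites stood at 82.3% in the knockout and 12.5% in the control. CFAP46, a cilia gene at 10q, had 3 gains and 1 loss in or near it, with a gain 38302 bases away. Its largest gain, 95.7% in the knockout and 25.5% in the control, lay 47614 bases from the gene, and its loss, 16.1% in the knockout and 49.9% in the control over 18 sites, inside it.

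**Figure D5:**
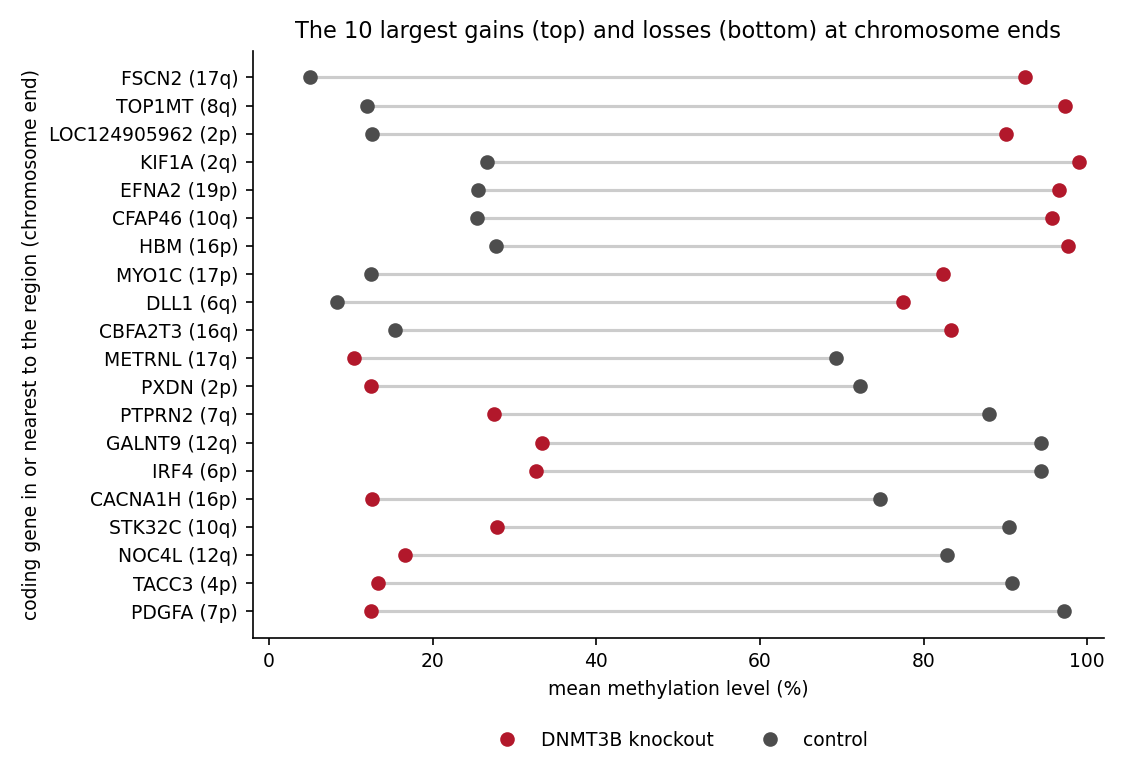
Mean methylation level (%) of the DNMT3B knockout in red and the control in grey for the 10 called gains and the 10 called losses of largest difference in or near coding genes, each labelled with its gene and chromosome end. Knockout means run up to 98.9% at KIF1A among gains, and control means up to 97.2% at PDGFA among losses.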

How the data were processed

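Methylation was measured by reduced representation bisulfite sequencing in 3 libraries of the DNMT3B knockout and 3 of control M07e cells. Tools listed in the submitters' processing notes are methylKit, Bismark, HISAT2, Trimmomatic and FastQC, with the build hg38 and no settings. The deposited table gives, per the file headers, a mean methylation level in percent for each group and region, their difference in percent points, a number of sites, a q-value and p-values of Mann-Whitney and Kolmogorov-Smirnov tests. How regions, q-values and a minimum coverage were set is not stated there or in the labels, and depth is unknown.

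No new test across regions was made, since the table has no value per library. Regions were selected, counted and described with Python 3.11.15, pandas 2.3.3, numpy 2.4.6 and scipy 1.17.1, which gave exact (Clopper-Pearson) 95% intervals over regions. These treat regions as independent and carry no library error. The counting steps were tested on simulated data. A region is called when the authors' q is under 0.01 and the deposited difference at least 25 points. In 54 subtelomeric regions, none of them called, that difference is more than 0.01 points off the difference of the means. Its sign can be opposite too, which bears on counts of higher and lower regions. In TERT, 1282395 to 1282413 had 19.7% in the knockout and 14.3% in the control with a deposited difference of -18.94 points. In CBFA2T3, 88956982 to 88957034 had 96.6% in the knockout and 96.95% in the control with a deposited difference of 11.47 points.

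Positions were checked on the 2523 regions that lie inside a RefSeq promoter window: both ends fall on a CpG in all of them when a start is read as 2 bases and a stop as 1 base above the deposited number, and in 975 under the usual reading, so the first was used. Sites exceeded the CpG dinucleotides in 1913 of them (75.8%). A region was assigned to each RefSeq gene it overlaps, or else to the nearest within 50000 bases, among coding genes except for noncoding list members. The rule for named genes took the 10 largest called gains and losses near coding genes (1 per gene), up to 3 genes with the largest called differences in each of 9 lists, the 5 genes with most called regions, and TERT and CBFA2T3. Further list genes and their uncalled neighbours were chosen after their values were seen. Of the 18 called regions over promoter windows, the 3 largest gains and losses are printed. The selection of regions and the lists were made with earlier results of these data known.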

Additional observations from a re-analysis of the deposited data

How the results depend on the processing

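No paired analysis was possible because the table holds 1 mean per group, and leaving out a library was not possible for the same reason. The share called was lower at the ends than elsewhere under each of the 11 alternatives that give both shares, and the median difference stayed above 0 in all 7 that give one. With a difference of 10 points 7.49% at the ends and 8.82% elsewhere were called, 63.8% of those at the ends upward, and with 40 points 3.23% and 3.49%. With q under 0.05 the shares were 9.65% at the ends and 10.7% elsewhere, and with q under 0.001 2.66% and 3.47%. The Kolmogorov-Smirnov p-values, adjusted by Benjamini-Hochberg, gave 3.34% at the ends and 4.31% elsewhere. Among regions with 10 or more sites the shares were 13.3% at the ends and 17.1% elsewhere, with a subtelomeric median difference of 30.3 points. Without regions at 0 in one group and 25 to 33.33% in the other they were 8.12% and 9.04%, with a median difference of 12.9 points. Within 0.5 Mb of an end gains made up 78.3% of the called regions (36 of 46), beside 71.6% within 2 Mb (237 of 331). Weighting, chosen after seeing the data, moved the share elsewhere to 7.37% by site numbers and 6.66% by position classes, and by both together to 7.11%. Apart from the alternatives that change the regions or the threshold by construction, the cause was not tested. Depth per library is unknown and limits every value here.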
